A study of Mus musculus with 20 samples.

Results

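A set of genes of mouse Chr4 that are known or proposed tumor suppressors were followed by name through the RNAseq counts of 20 Her2/neu-driven breast tumors. The 10 genes were Cdkn2a, Cdkn2b, Cdkn2c, Arid1a, Runx3, Errfi1, Camta1, Casp9, Kif1b and Trp73, among 2878 Chr4 genes and 43346 genes in the count table, and each was found once. Each tumor came from a different female [BALB/c-neuT x FVB/J] F1 mouse, bred from a BALB/c father hemizygous for neuT and a wild type FVB/J mother. The neuT transgene encodes activated rat Her2/neu and is driven by the mouse mammary tumor virus promoter, so all tumors shared the oncogene and the F1 background, and there was no normal tissue for comparison. Sample names divide the tumors into 9 labelled Lo and 11 labelled Hi, a label whose meaning is not given in the sources used here, and no other treatment or genotype separates them. RNA came from small pieces of frozen tumor, collected when a tumor of the mouse reached a fixed size, and the ages of single mice were not used here.

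These genes act at several brakes on tumor growth. Cdkn2a, Cdkn2b and Cdkn2c encode inhibitors of the cyclin D-dependent kinases Cdk4 and Cdk6, which otherwise inactivate Rb1 and release E2F factors. Cdkn2a also encodes ARF, from a separate first exon and another reading frame, which protects p53 by binding Mdm2. Arid1a is a DNA-binding subunit of SWI/SNF chromatin remodelers, Runx3 and Camta1 are transcription factors, and Errfi1 (Mig6) inhibits kinases of the EGFR and HER2 family. Casp9 is the initiator caspase of the apoptosome, Kif1b is a kinesin that moves vesicles and mitochondria along microtubules, and Trp73 is a relative of p53. Loss of one chromosome copy removes one allele of each of them at once.

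Cdkn2a (ENSMUSG00000044303) and Cdkn2b (ENSMUSG00000073802) lie next to each other, at chr4:89274471-89294653 and chr4:89306289-89311032 (mm10), and both are read from the minus strand. The Cdkn2a counts join 2 transcripts of the GENCODE M21 annotation, with first exons at chr4:89281986-89282192 (INK4a) and chr4:89294334-89294653 (ARF) and a common second exon at chr4:89276645-89276985. A count of the gene does not tell INK4a from ARF. The bases upstream of the 3 first exons are shown because Cdkn2a and Cdkn2b were the members whose expression ran most closely together. They were taken from the RefSeq promoter table (GRCm38.p6, the assembly of mm10), minus strand, written 5′ to 3′, and exonic bases were removed. Capitals mark matches to TTTNNCGC on either strand, letters that resemble an E2F site.
Cdkn2a, upstream of the ARF exon, chr4:89294654-89294869: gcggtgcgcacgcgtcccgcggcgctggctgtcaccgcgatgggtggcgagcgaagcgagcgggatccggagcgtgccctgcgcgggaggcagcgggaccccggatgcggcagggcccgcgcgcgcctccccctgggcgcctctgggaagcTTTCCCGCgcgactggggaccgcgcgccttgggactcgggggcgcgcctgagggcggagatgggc
Cdkn2a, upstream of the INK4a exon, chr4:89282193-89282442: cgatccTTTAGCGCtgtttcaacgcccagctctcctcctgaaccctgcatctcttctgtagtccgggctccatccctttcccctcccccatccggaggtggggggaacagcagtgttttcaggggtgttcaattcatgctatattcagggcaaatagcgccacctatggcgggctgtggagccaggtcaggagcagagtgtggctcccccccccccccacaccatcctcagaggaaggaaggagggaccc
Cdkn2b, chr4:89311040-89311282: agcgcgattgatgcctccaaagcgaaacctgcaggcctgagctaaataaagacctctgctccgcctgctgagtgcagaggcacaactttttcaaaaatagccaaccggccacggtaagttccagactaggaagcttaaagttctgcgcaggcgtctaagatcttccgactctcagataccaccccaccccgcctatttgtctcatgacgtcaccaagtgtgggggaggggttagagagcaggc
Each Cdkn2a stretch held 1 match, TTTCCCGC at bases 152 to 159 of the first and TTTAGCGC at bases 7 to 14 of the second, and the Cdkn2b stretch held none. None of the 3 held CACGTG, the E-box palindrome. Among 32851 RefSeq promoters, 4.28% held TTTNNCGC and 6.02% held CACGTG in the 250 bases before the start. Cdkn2c (ENSMUSG00000028551) lies farther along at chr4:109660876-109667189, and both of its promoter windows in the table overlapped annotated exons of the gene and are not shown.

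Total counts per tumor lay between 38765682 and 65465755 (median 49881778.5). Epithelial genes (Epcam, Krt8, Krt18, Cdh1 and Cldn3) summed to between 2556 and 4122 CPM over the tumors, so the markers of the labelled tissue were present in each. CPM is a gene's count scaled to a common library size with TMM factors, and RPKM is CPM per kilobase of the gene length listed in the table. An overlapping pair of genes at a ribosomal RNA locus took 6.29% to 27.7% of a tumor's counts. Tumor pieces hold several cell types, and fewer cells of a type cannot be told apart from less RNA per cell.

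Of the 10 genes, 9 were expressed well enough to be tested, the exception being Trp73. Trp73 (ENSMUSG00000029026, chr4:154056253-154140208) lay between 0 and 0.0491 CPM, with a median of 0.00705 CPM. All 20 values were under 0.0774 CPM, the highest level that the limit of 3 counts gives in any tumor, so no difference in Trp73 was detectable at this depth. The 9 other genes differed widely in RPKM. Errfi1 was the most abundant, at 31.1 to 63.3 RPKM with a median of 45.1, and no tumor brought it down to the range of another member. Cdkn2b followed with a median of 9.11 RPKM (6.61 to 12.5), Cdkn2a with 8.53 RPKM (4.17 to 16.1) and Arid1a with 8.43 RPKM (6.22 to 11.4). These 3 ranges overlapped, so their order is not resolved. Cdkn2c had a median of 4.97 RPKM (3.11 to 6.79), Kif1b one of 4.4 RPKM (3.57 to 6.14) and Casp9 one of 3.02 RPKM (2.43 to 3.79), again with overlap between neighbours. Runx3, with a median of 0.776 RPKM (0.509 to 1.08), and Camta1, with a median of 0.406 RPKM (0.259 to 0.581), lay below all of them and overlapped each other.

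**Figure D1:**
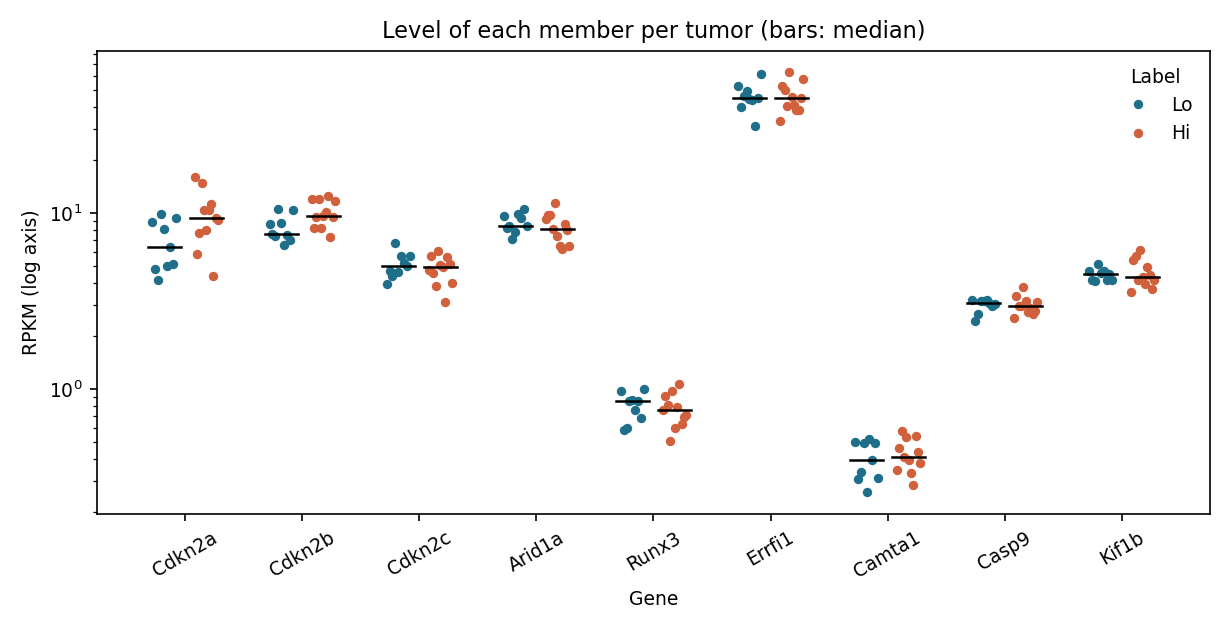
RPKM (log axis) of the 9 tested genes in each tumor, with 9 Lo and 11 Hi tumors side by side and a bar at each median. Errfi1 lies at the top between 31.1 and 63.3 RPKM, Runx3 and Camta1 lie at the bottom, and the Lo and Hi points of every gene overlap.

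Cdkn2a differed most between tumors. It ranged from 4.89 CPM in Lo 3 to 18.9 CPM in Hi 1, with a median of 9.99 CPM, a 3.86-fold range. Its SD was 0.56 on the log2 CPM scale, above that of 84.0% of all 18883 genes tested and 86.4% of the other Chr4 genes tested. The neighbouring Cdkn2b varied less, from 9.21 CPM in Lo 7 to 17.4 CPM in Hi 8, with a median of 12.7 CPM and an SD of 0.28. Casp9 varied least, from 12.6 CPM in Lo 2 to 19.7 CPM in Hi 5, with a median of 15.7 CPM. Its SD of 0.15 was above that of 16.1% of all genes tested and 1.56% of the other Chr4 genes. The SDs of the remaining genes were 0.20 for Kif1b, 0.24 for Arid1a, 0.26 for Cdkn2c, 0.27 for Errfi1, 0.29 for Runx3 and 0.34 for Camta1. The median SD was 0.27 over the 9 genes, 0.28 over 1156 other Chr4 genes and 0.25 over all genes tested. These 3 medians were close to each other.

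The design asks next how each gene tracked the expression of its chromosome. Chr4 dosage was taken for each tumor as the median log2 deviation, from each gene's own median over tumors, of 731 Chr4 genes with a mean of at least 5 CPM, less the same median over 11599 autosomal genes. The 10 genes described here were left out of the Chr4 median, and those with a mean of at least 5 CPM stayed in the autosomal one. Dosage ran from -0.21 in Lo 2 to 0.38 in Hi 5, with a median of -0.01, which is 0.865 to 1.30 times the median level. Lo tumors lay between -0.21 and 0.16 and Hi tumors between -0.13 and 0.38, so the labels overlapped. Hi 5 stood apart at the top, and the next tumor, Hi 2, lay at 0.17. The level is an expression measure and not a copy number. The paper reports alleles skewed toward FVB along the whole of Chr4 in this cohort. It also reports loss of all or part of a Chr4 copy in every F1 tumor it karyotyped. Low and high dosage are therefore not read here as loss and retention of Chr4. Windows of 5 Mb to either side of each gene, read in the same way over 14 to 132 genes, departed by at most 0.21 from the rest of the chromosome in any tumor. That largest gap was at the Cdkn2a and Cdkn2b window in Lo 4, where 14 genes stood behind the value. Over the tumors this window had r = 0.82 with the rest of Chr4, the lowest of these windows. Away from the genes the chromosome was less even. At 20 to 30 Mb, over 14 genes, Hi 1 lay at -0.42 against its dosage of -0.13.

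**Figure D2:**
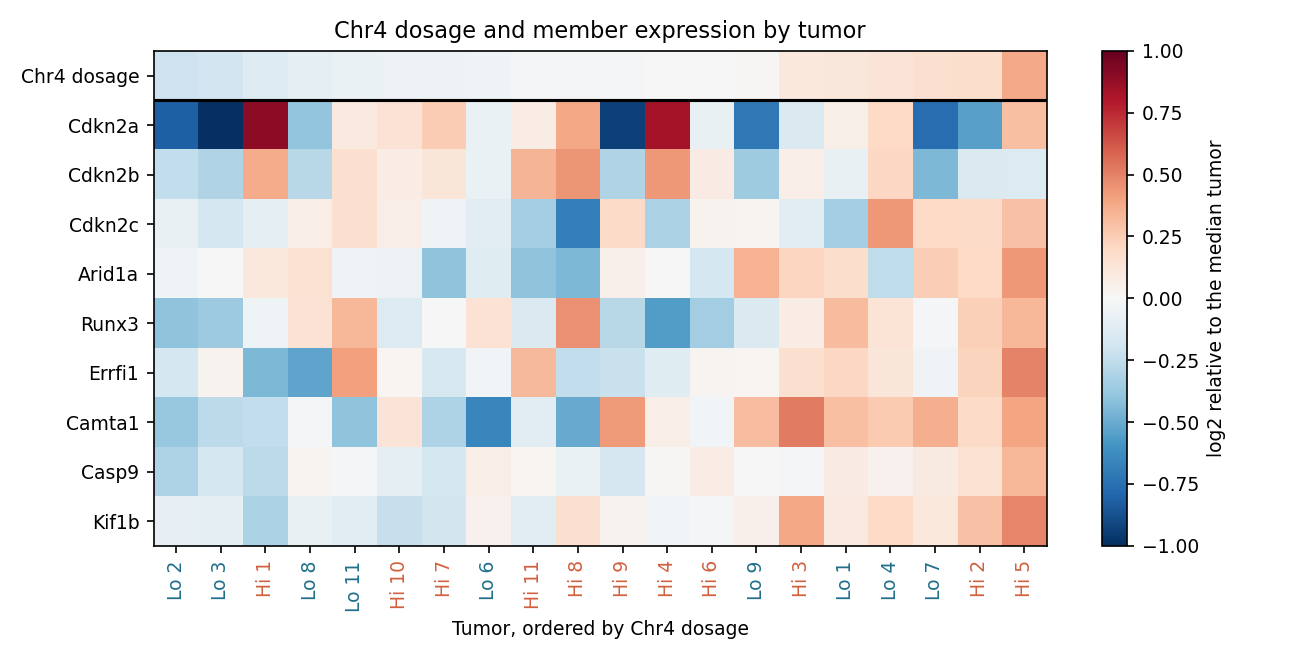
log2 expression of Chr4 (top row) and of the 9 tested genes in each tumor, relative to the median tumor and to the autosomes, with tumors ordered from the lowest to the highest Chr4 dosage and colors ending at -1 and 1. Kif1b and Casp9 pass from blue to red with the top row, while Cdkn2a has its darkest colors scattered along it.

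Kif1b, Casp9 and Camta1 rose with Chr4 dosage, while no slope was detected for Cdkn2a and Cdkn2b. The interval of the Cdkn2a slope, -1.62 to 2.01, also held the slopes of Kif1b, Casp9 and Camta1. Differences between the slopes of members were not tested. Kif1b (ENSMUSG00000063077, chr4:149176319-149307693) ranged from 62.8 CPM in Hi 1 to 108.1 CPM in Hi 5, with a median of 77.5 CPM. Hi 5 and Hi 3 (100.5 CPM) were its highest tumors, and both lay among the 6 highest of Chr4 dosage. Its slope, in log2 expression per log2 unit of dosage, was 1.19 (SE 0.20, adjusted p = 0.000632, edgeR quasi-likelihood test with Benjamini-Hochberg adjustment over 18883 genes), which amounts to 1.62-fold over the range of dosage. Casp9 (ENSMUSG00000028914, chr4:141793612-141815976) had its lowest value in the tumor of lowest dosage, Lo 2, and its highest in the tumor of highest dosage, Hi 5. Its slope was 0.89 (SE 0.19, adjusted p = 0.00449 by the same test). Relative to the autosomes its SD was 0.15, and relative to Chr4 dosage the SD was 0.08. Camta1 (ENSMUSG00000014592, chr4:150917322-151861876) ranged from 3.78 CPM in Lo 6 to 8.47 CPM in Hi 3, with a median of 5.91 CPM. Its slope was 1.67 (SE 0.43, adjusted p = 0.0198), and its interval of 0.78 to 2.56 included 1. Camta1 spans the whole of several smaller genes, among them Per3 and Vamp3, and the strand setting of the counts is not stated, so reads where their exons meet cannot be assigned with certainty.

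These 3 of 9 tested genes stood beside 34.3% of 1156 other Chr4 genes and 5.62% of all 18883 genes called by the same test, a share of the 9 close to that of the chromosome. The median slope was 0.89 over the 9 genes, 0.93 over the other Chr4 genes and -0.06 over all genes tested. Other Chr4 genes with a mean of at least 5 CPM helped set the Chr4 median of the dosage, and the 9 genes did not. Part of the share called and of the slopes among the other Chr4 genes is thus fixed by construction. Errfi1 (ENSMUSG00000028967, chr4:150853919-150868892) ranged from 111.5 CPM in Lo 8 to 226.9 CPM in Hi 5, with a median of 161.7 CPM. Arid1a (ENSMUSG00000007880, chr4:133679008-133756769) ranged from 71.3 CPM in Hi 8 to 130.7 CPM in Hi 5, with a median of 96.8 CPM. Runx3 (ENSMUSG00000070691, chr4:135120652-135177990) ranged from 2.55 CPM in Hi 4 to 5.38 CPM in Hi 8, with a median of 3.88 CPM. Errfi1 and Arid1a thus had their highest values in the tumor of highest dosage, and Runx3 had its highest in a tumor near the middle. Errfi1 had a slope of 1.04 (SE 0.35) that did not pass the test (adjusted p = 0.0926), and neither did Runx3 with 0.94 (SE 0.45, adjusted p = 0.291), Arid1a with 0.75 (SE 0.33, adjusted p = 0.229) and Cdkn2c with 0.70 (SE 0.38, adjusted p = 0.379).

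Cdkn2b had the lowest slope of the 9, -0.26 (SE 0.47) with an interval of -1.23 to 0.72, and did not pass the test (adjusted p = 0.865). Of the other Chr4 genes tested, 12.5% had a lower slope. Cdkn2a had a slope of 0.20 (SE 0.88, adjusted p = 0.954), and its wide interval of -1.62 to 2.01 held both 0 and 1. In Hi 1, a tumor of low dosage (-0.13), Cdkn2a was at its highest and Cdkn2b at 16.6 CPM. In Lo 2 and Lo 3, the other tumors at that end, Cdkn2a was at 5.61 and 4.89 CPM. Mtap, a metabolic gene known to lie beside Cdkn2a and named here after its value was seen, had a slope of 1.30 (SE 0.29, adjusted p = 0.00663). Unlike the members, Mtap was among the genes that set the Chr4 median of the dosage. The difference between the slopes of Mtap and Cdkn2b was not tested.

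**Figure D3:**
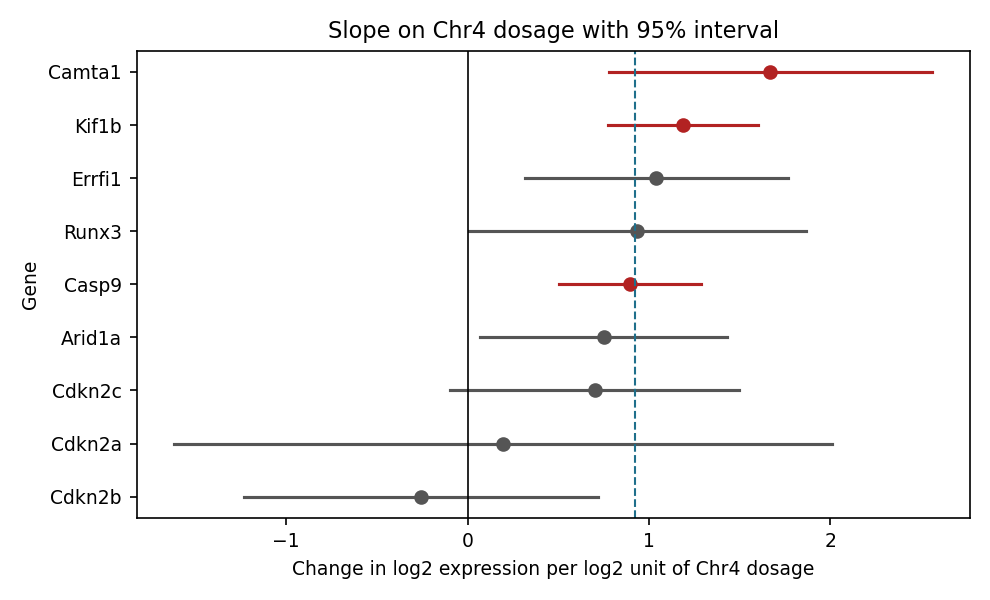
Slope of each tested gene on Chr4 dosage (change in log2 expression per log2 unit) with its 95% interval, over 20 tumors, red where the adjusted p was under 0.05. The solid line marks 0 and the dashed line marks 0.93, the median of the other Chr4 genes, which the interval of Cdkn2b does not reach.

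Permutation tests of the correlation over all 20 tumors also called Kif1b, Casp9 and Camta1. With 100000 two-sided permutations and adjustment over 18883 genes, 5.4% of genes were called for Pearson's r and 4.67% for Spearman's rho. Kif1b had r = 0.83 (p = 2e-05, adjusted p = 0.00209) and Spearman's rho = 0.85 (p = 3e-05, adjusted p = 0.00339). Without Hi 5 and Lo 2, the 2 tumors farthest from the median dosage, its r was 0.77 (adjusted p = 0.0204, permutation). Within Lo tumors it was 0.89, a value that did not pass (adjusted p = 0.208, exact permutation test), and within Hi tumors 0.89 (adjusted p = 0.0222, permutation). Casp9 had r = 0.84 (p = 2e-05, adjusted p = 0.00209) and rho = 0.75 (p = 0.00018, adjusted p = 0.0101). Its r was 0.69 without those 2 tumors, 0.81 within Lo and 0.89 within Hi tumors, and the call was lost in each (adjusted p = 0.0685, 0.215 and 0.0637, permutation, exact within Lo). Camta1 had r = 0.68 (p = 0.00062, adjusted p = 0.018) and rho = 0.71 (p = 0.00062, adjusted p = 0.0222). Its r was 0.65 without the 2 tumors, 0.76 within Lo and 0.59 within Hi tumors, and here too the call was lost in each (adjusted p = 0.101, 0.441 and 0.425, permutation, exact within Lo). Cdkn2a was at r = 0.12 (p = 0.605, permutation) and Cdkn2b at -0.10 (p = 0.682, permutation).

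**Figure D4:**
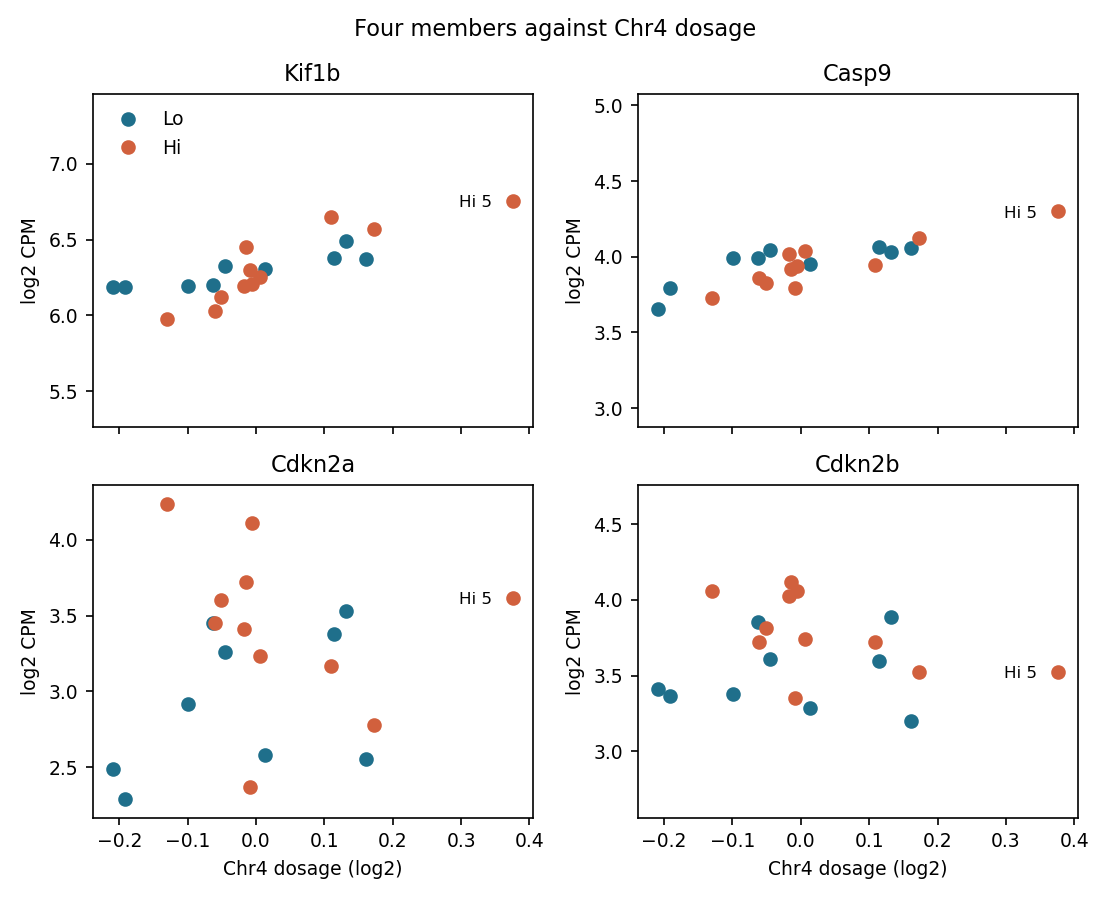
log2 CPM of Kif1b, Casp9, Cdkn2a and Cdkn2b against Chr4 dosage (log2), 1 point per tumor, with axes of equal height. Kif1b and Casp9 climb toward Hi 5 at a dosage of 0.38, and Cdkn2a and Cdkn2b spread without direction.

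Other values moved with dosage. The T and NK cell score (mean z-score of Cd3e, Cd3d, Cd3g, Cd2, Cd8a, Nkg7 and Gzma, none of them on Chr4) had r = 0.81 with dosage (p = 1e-05, the smallest that 100000 permutations can give, adjusted p = 0.0001 over 10 scores) and rho = 0.76 (adjusted p = 0.0022). Without the 2 farthest tumors r was 0.70. The 7 genes summed to only 0.681 to 4.56 CPM, 0.712 to 2.19 in Lo and 0.681 to 4.56 in Hi tumors, with the highest sum in Hi 5, and 5 of them passed the filter on low counts. The leukocyte score, of which 2 genes lie on Chr4 (Laptm5 and Cd52), had r = 0.63 (adjusted p = 0.0128, permutation) and rho = 0.56 (adjusted p = 0.0534, permutation), and its 5 genes summed to 67.8 to 114.1 CPM. The other 8 scores lay between -0.18 and 0.39 and did not pass the test. With the T and NK cell score as a covariate, chosen after the data were seen, none of the 9 genes was called and 39 genes were called in all. The slopes were then 0.64 for Kif1b, 0.86 for Casp9 and 1.88 for Camta1. With leukocyte and fibroblast scores as covariates, Kif1b alone of the 9 was called (slope 1.13, adjusted p = 0.0188), and the slopes of Casp9 and Camta1 were 0.85 (adjusted p = 0.0548) and 1.95 (adjusted p = 0.0591). The part of these cells in the slopes was not tested.

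Cdkn2a and Cdkn2b were correlated over the tumors. Over 20 tumors r was 0.87 and rho 0.83, with p = 1e-05 for r, the smallest the permutations can give, and p = 4e-05 for rho. Adjusted over the 18882 other genes, p for r was 0.0472 when Cdkn2b was set against every gene and 0.189 when Cdkn2a was. The second of these is the least that 1 such p can reach at this number of permutations. By Pearson's r, 0.0424% of genes were called for Cdkn2b and 0% for Cdkn2a. With the 2 most extreme tumors for Cdkn2b left out r was 0.86, and it was 0.88 within Lo and 0.80 within Hi tumors. After adjustment, Cdkn2b with Cdkn2a did not pass in any of these subsets (adjusted p = 0.189, 0.177 and 0.515, permutation, exact within Lo). The first of these values again equals the least that 1 such p can reach. It could not pass unless other genes reached such a p too, so no loss of the relation is read from it. The subsets also held fewer tumors. Kif1b and Casp9 had r = 0.69 and rho = 0.69, with p = 0.00074 and an adjusted p = 0.0399 set out from Kif1b, where 2.38% of genes were called, and 0.0511 set out from Casp9, where 1.5% were called. With the 2 most extreme tumors for Kif1b left out their r was 0.64, with 0.64 within Lo and 0.74 within Hi tumors. No other pair of the 36 passed in either direction, among them Arid1a and Cdkn2b, at r = -0.62 (adjusted p = 0.0599 and 0.195, permutation).

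Cdkn2c was correlated with genes of cycling cells. It ranged from 8.36 CPM in Hi 8 to 18.2 CPM in Lo 4, with a median of 13.3 CPM. The cycling score (Mki67, Top2a, Ccnb1, Cdk1, Bub1 and Aurkb, whose sum ran from 286 to 628 CPM) had r = 0.73 with Cdkn2c (p = 0.00029, adjusted p = 0.0355, permutation), where 0.916% of genes were called. Spearman's rho was 0.56 (adjusted p = 0.441, permutation). Hi 8 had both the lowest Cdkn2c and the lowest score, and without the 2 tumors farthest from the median score r fell to 0.48, so the call rests on those tumors. Within Lo tumors r was 0.57 and within Hi tumors 0.82. With the cycling score as a covariate, chosen after the data were seen, the dosage slope of Cdkn2c was 0.97 (SE 0.24, adjusted p = 0.0177). Kif1b with the T and NK cell score was the only other of 90 relations between a member and a score that was called (r = 0.82, p = 3e-05, adjusted p = 0.0472, permutation, with 0.185% of genes called). Its rho was 0.82 (adjusted p = 0.107, permutation), and without the 2 tumors farthest from the median score r was 0.69.

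**Figure D5:**
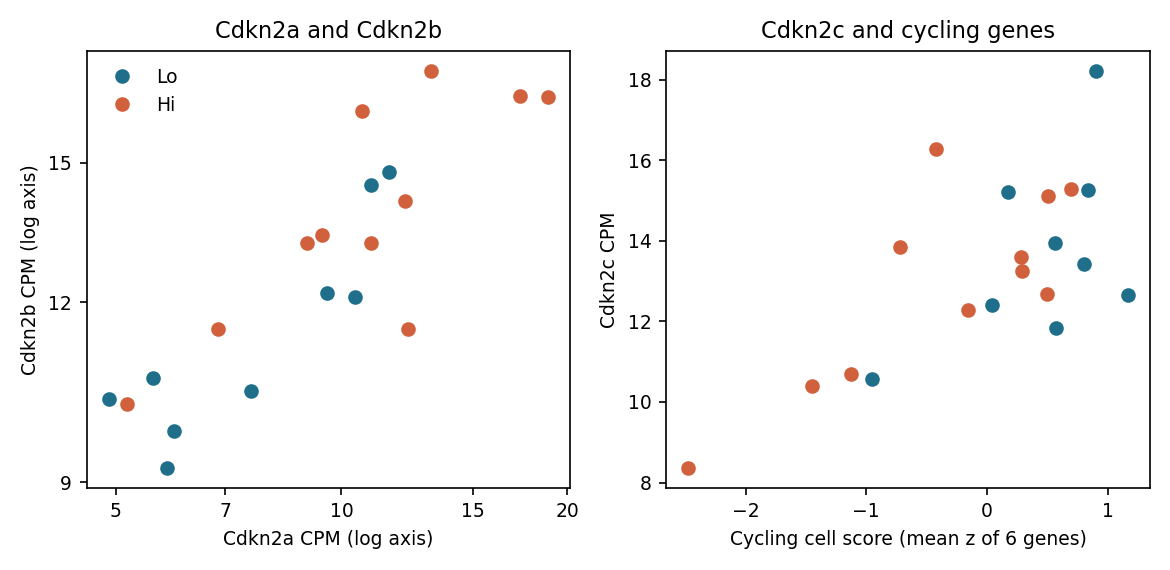
Left, Cdkn2a against Cdkn2b in CPM (log axes), and right, Cdkn2c in CPM against the cycling cell score (mean z of 6 genes), 1 point per tumor. The Cdkn2a and Cdkn2b points form a band in both Lo and Hi tumors (r = 0.87), and the lowest Cdkn2c, 8.36 CPM in Hi 8, lies at the lowest score.

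The genes with the profile most like each member, by Pearson's r of log2 CPM over 20 tumors among all genes tested, are given as a description. Cdkn2c was most like Cdca8 (0.92) and Cdc20 (0.89), both known for roles in mitosis, and Stmn1 (0.83), which binds tubulin, all 3 on Chr4. Arid1a was most like Spen (0.92) and Ahdc1 (0.92) of Chr4 and Mdc1 (0.88), a DNA damage mediator of Chr17. Kif1b was most like 3 Chr4 genes, Nfib (0.90), Kpna6 (0.89) and Inip (0.89). Casp9 was most like Kdf1 (0.88), Gm29186 (0.87) and AU040320 (0.86), of which Gm29186 is on Chr1 and the others on Chr4. After Cdkn2b, Cdkn2a was most like Pkd2l1 (0.79) and Etv5 (0.78), an ETS factor. After Cdkn2a, Cdkn2b was most like Ociad1 (0.85) and Rab31 (0.84). Runx3 was most like Ap1b1 (0.81), Hdhd3 (0.79) and Slc25a29 (0.77). Errfi1 was most like Ehf (0.86), an epithelial ETS factor, Tlr2 (0.85) and Glt28d2 (0.84). Camta1 was most like Rfx5 (0.88), B230398E01Rik (0.86) and Haus6 (0.86).

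Lo and Hi tumors were compared gene by gene, and no gene of 18883 passed the edgeR quasi-likelihood test (0%), while 1045 had an unadjusted p under 0.05 and DESeq2 called 1. Cdkn2a was at 8.05 ± 2.60 CPM (SD, n = 9) in Lo tumors and 11.4 ± 4.06 CPM (SD, n = 11) in Hi tumors. The lowest, median and highest values were 4.89, 7.56 and 11.6 CPM in Lo and 5.17, 10.95 and 18.9 CPM in Hi tumors. The groups overlapped, and the log2 difference (Lo minus Hi) was -0.50 (edgeR quasi-likelihood, adjusted p = 0.819). Cdkn2b was at 11.5 ± 2.0 CPM (SD, n = 9) in Lo and 14 ± 2.44 CPM (SD, n = 11) in Hi tumors, a log2 difference of -0.27 (adjusted p = 0.782). The other 7 genes differed by -0.08 to 0.10 with an adjusted p of 0.9996. Nor did any gene's dosage slope differ between Lo and Hi tumors (0% called, 539 genes at an unadjusted p under 0.05). For Kif1b the slope was lower by 0.92 in Lo tumors (unadjusted p = 0.0298 and adjusted p = 0.99998 by the edgeR interaction term).

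Partners of these genes lie mostly on other chromosomes and were read from lists of the same pathways, against the 4.12% of all genes that rose with dosage and the 1.5% that fell. On the Cdk4 and Rb1 axis, 2 of 19 genes rose with dosage and none fell, with a median slope of -0.15. They were E2f2, itself a Chr4 gene, with 1.72 (SE 0.32, adjusted p = 0.00147), and Rb1 of Chr14 with 1.43 (SE 0.29, adjusted p = 0.00317). Cdk4 and Cdk6, the targets of the 3 inhibitors, had slopes of -0.55 (adjusted p = 0.178) and -1.35 (adjusted p = 0.124). Of 7 genes around ARF and p53, Trp63 alone rose, with 2.86 (SE 0.60, adjusted p = 0.00447), and it was low, at 1.49 to 4.45 CPM. The median slope of these 7 was 0.03, and Mdm2 had -0.44 (adjusted p = 0.495) and Trp53 -0.15 (adjusted p = 0.803).

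Among 10 ERBB receptors and inhibitors, Erbb4 and Egfr rose, with slopes of 4.4 (SE 0.75, adjusted p = 0.000664) and 1.46 (SE 0.32, adjusted p = 0.00572), and the list's median was -0.04. Erbb4, a HER2 partner, ran from 2.61 to 16.9 CPM, while the mouse Erbb2 gene had a slope of 0.04 (adjusted p = 0.971). Of 4 genes listed around RUNX factors (Runx1, Runx2, Cbfb and Runx1t1, the last on Chr4), Runx2 alone rose, with 1.79 (SE 0.51, adjusted p = 0.0386). That call was lost without any one of Lo 1, Lo 2, Lo 3, Lo 6, Lo 8, Lo 11, Hi 2 and Hi 5, when the adjusted p reached 0.115. Kif1c, of 8 kinesin-3 genes and Kif1b partners, had 0.66 (SE 0.20, adjusted p = 0.0492), a call kept only without Lo 11, Hi 2, Hi 7 or Hi 8 and lost in the 16 other fits that left out a tumor. The medians of those lists were 0.49 and -0.10. None of 20 SWI/SNF subunits passed (median -0.09), none of 14 apoptosome and BCL2 family genes (median -0.21), and Camta2 did not (0.34). Of 14 tested genes from a list of other Chr4 genes, 10 rose and none fell, with a median of 1.03, beside 33.7% of all Chr4 genes outside the members that rose. Listed genes with a mean of at least 5 CPM helped set the dosage, so part of their rise is fixed by construction. The list was not matched in expression level to the other Chr4 genes, so the 2 shares are not read as a difference. The lowest p-values were those of Epha2, an ephrin receptor (slope 3.30, adjusted p = 0.000146), Pgd, of the pentose phosphate pathway (1.23, adjusted p = 0.000586), Ube4b, a ubiquitin ligase (0.93, adjusted p = 0.00131), and E2f2. In Lo against Hi tumors no gene of any list was called. With the T and NK cell score as a covariate, the calls of Mtap and of every list gene named here as rising were lost, at adjusted p from 0.0696 (Epha2, slope 3.83) to 0.876 (Runx2, slope 1.01). The slopes were then 2.96 for Erbb4 (adjusted p = 0.473), 1.56 for Egfr (0.401), 1.02 for Rb1 (0.587), 2.24 for Trp63 (0.585) and 1.56 for Mtap (0.258). Mtap (1.16, adjusted p = 0.0737) and Kif1c (0.51, adjusted p = 0.282) were also lost with leukocyte and fibroblast scores.

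Without Hi 5, 513 genes were called in place of 1061, Kif1b (adjusted p up to 0.0171 over all fits that left out 1 tumor) and Camta1 stayed past the threshold, and Casp9 had a slope of 0.87 (adjusted p = 0.073). E2f2 (slope 1.41, adjusted p = 0.0823), Egfr (1.32, adjusted p = 0.115) and Ube4b (0.79, adjusted p = 0.0611) were also lost without Hi 5, with slopes near those over all tumors, and Errfi1 was called without Lo 11 (slope 1.16, adjusted p = 0.026).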

How the data were processed

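RNA from 20 frozen tumor pieces was sequenced with TruSeq libraries and paired-end reads, trimmed by the authors to 100 bases and aligned to mm10 with TopHat2 2.0.12 in the MapRseq workflow. Whole-number counts per gene were deposited without normalization, made with featureCounts 1.4.4 per the labels, 1 column per tumor with nothing pooled. Its strand setting and annotation release are not given in the sources used here. Reads of strain variants met a C57BL/6 reference, the counts do not separate parental alleles, and allele counts were not analysed here. RPKM was computed here from the counts and listed lengths, with TMM factors for levels and with plain total counts for log2(RPKM + 1).

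From the counts, TMM factors, CPM, log2 CPM (prior count 2), filterByExpr and quasi-likelihood tests were computed with edgeR 4.0.16 in R 4.3.3, with DESeq2 1.42.0 and limma 3.58.1 on log2(RPKM + 1) as alternatives. Slopes were fitted on Chr4 dosage, a difference on the Lo or Hi label and an interaction on both, over all genes at an adjusted p under 0.05, and intervals are at 95%. Permutation tests used Python 3.11.15 with numpy 2.4.6 and scipy 1.17.1, two-sided, with 100000 permutations, or exact for groups under 10. Scripts were tested on simulated data. With 3 counts as the limit of a count of 0, depth allowed a floor of 0.0458 to 0.0774 CPM per tumor, for counting error only.

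Genes named were the members, pathway genes past the threshold (up to 4 a list by p) and the 3 genes of highest r with each member. The members and lists were chosen with earlier results of these data known. Same-numbered Lo and Hi tumors come from different mice and the numbers are not described as pairs. Tumors are separate mice, sequenced together. Marker scores were mean z-scores for leukocytes, T and NK cells, macrophages, B cells, fibroblasts, endothelial, adipocyte, epithelial, myoepithelial and cycling cells. Alternatives changed normalization, tool, filter, unit, dosage genes, covariates or tumors.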

Additional observations from a re-analysis of the deposited data

How the results depend on the processing

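Over all 20 tumors and without covariates, 1061 genes were called for a Chr4 dosage slope. Separate fits over all genes, whose overlap with these was not counted, called 695 (1 member, Kif1b) with leukocyte and fibroblast scores as covariates, 39 (0 members) with the T and NK cell score, 450 (1 member, Kif1b) without the 2 tumors farthest from the median dosage, 59 (0 members) in Lo tumors alone and 250 (1 member, Kif1b) in Hi tumors alone. Counts without any one tumor ran from 513 (Hi 5) to 1094, with 2 to 4 members. RLE scaling, DESeq2 (1439 genes), no filter, log2(RPKM + 1) with limma (1261), both other dosage scales, the Lo or Hi label and the cycling score kept the calls of Kif1b, Casp9 and Camta1. Their slopes kept their sign in all 34 alternatives. On log2(RPKM + 1) with limma, Errfi1 was called as well (slope 1.36, adjusted p = 0.0124). No pairing by the number in the sample names was seen, which does not exclude one. Deviations of same-numbered tumors correlated at -0.42 to 0.21, over 0.1 in 3 of 9 pairs, and 1 tumor of 9 correlated best with its own number. Fitted as a replicate block, the number in the names left 234 genes and 1 member (Kif1b) called for dosage and 0 genes for Lo against Hi.

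The slope of Cdkn2a was not called in any alternative. It turned to -0.10 with the cycling score, -1.23 without the 2 farthest tumors, -0.95 in Hi tumors and -0.22 with the block. The same slope was 1.66 in Lo tumors and 0.66 on log2(RPKM + 1), and ran from -0.36 to 0.86 without any one tumor. That of Cdkn2b was 0.070 on log2(RPKM + 1) and 0.31 in Lo tumors. Their correlations with dosage turned to -0.13 without the 2 farthest tumors and -0.25 in Hi tumors for Cdkn2a, and to 0.037 on log2(RPKM + 1) and 0.16 in Lo tumors for Cdkn2b. Of all genes, 1020 were called for a correlation with dosage over 20 tumors, 383 without the 2 farthest tumors, 6 in Lo and 129 in Hi tumors. Relations with marker scores that were called numbered 2 over 20 tumors, 5 on log2(RPKM + 1) and 0 without the 2 farthest tumors, in Lo or in Hi tumors. For Lo against Hi, DESeq2 and the fit with no filter each called 1 gene in place of 0. On log2(RPKM + 1) the SD fell from 0.34 to 0.12 for Camta1 and from 0.29 to 0.14 for Runx3, both of low RPKM. Fits on fewer tumors had fewer samples, and the cause of the other changes was not tested. At this depth Trp73 could not be tested.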
